A study of Mus musculus with 22 samples.

Results

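The genes described here are 10 targets and partners of the transcription factor NRF2 in mouse lung, namely Hmox1, Nqo1, Gclc, Gclm, Txnrd1, Srxn1, Slc7a11, Gsr, Prdx1 and Nfe2l2. They were chosen by name, and probes were assigned to them through the RefSeq accession printed in the array files, which gave 13 of the 55681 probes and 10 of the 20018 genes that an accession named. Hmox1, Gsr and Prdx1 had 2 probes each and the other 7 genes had 1. Lung RNA came from 22 female C57BL/6 mice that were 8 weeks old when the experiment began. The mice received Mitsui7, a multiwalled carbon nanotube, by a single intratracheal instillation, and right lung was collected 24 hours later. There were 6 mice at 18 µg, 5 at 54 µg and 6 at 162 µg, and 5 controls received the vehicle, 0.9% NaCl containing 10% bronchoalveolar lavage fluid. Each lung RNA was labelled with Cy5 and hybridised against 1 common reference RNA labelled with Cy3, so every value below is lung over reference on the log2 scale, or a difference between such ratios.

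NRF2, encoded by Nfe2l2, is held in the cytoplasm by KEAP1 and degraded. Electrophiles and oxidants modify KEAP1, NRF2 then accumulates in the nucleus, pairs with small MAF proteins and binds antioxidant response elements upstream of genes for glutathione synthesis, thioredoxin recycling, quinone reduction and heme breakdown. In lung these genes are known from the response to inhaled oxidants and particles, and airway epithelium and macrophages both express them.

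RefSeq promoter windows, each running from 250 bases before to 50 bases after a transcription start on GRCm38.p6, were at hand for 7 of the 10 genes, in 9 windows because Txnrd1 has 3. The core of the antioxidant response element was searched on both strands as TGACNNNGC and as TGAGNNNGC, together with TGACTCA, the AP-1 site, which can overlap either form. TGACNNNGC was found in 12.4% of all 32851 windows and in 5 of the 9, TGAGNNNGC in 17.6% and in 3 of the 9, and TGACTCA in 5.2% and in 2 of the 9. Upstream sequences follow for Txnrd1 and Srxn1, the genes with the smallest p-values in the expression results, and as shorter stretches around the match for Prdx1, Gclm and Nfe2l2. They read 5′ to 3′ along the gene, and capitals mark every match to the 3 motifs.
Txnrd1 (chr10:82858956-82859205, plus strand): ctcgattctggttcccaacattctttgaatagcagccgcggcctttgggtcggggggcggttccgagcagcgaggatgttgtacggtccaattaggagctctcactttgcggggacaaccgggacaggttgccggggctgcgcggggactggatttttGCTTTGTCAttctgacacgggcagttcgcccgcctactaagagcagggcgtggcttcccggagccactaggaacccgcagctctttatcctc
Srxn1 (chr2:152105274-152105523, plus strand): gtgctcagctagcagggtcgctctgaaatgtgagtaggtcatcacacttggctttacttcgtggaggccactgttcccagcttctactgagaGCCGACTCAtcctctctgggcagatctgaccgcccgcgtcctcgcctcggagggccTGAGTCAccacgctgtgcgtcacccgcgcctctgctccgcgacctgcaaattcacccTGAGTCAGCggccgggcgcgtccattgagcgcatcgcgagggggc
Prdx1 (chr4:116685440-116685500, plus strand): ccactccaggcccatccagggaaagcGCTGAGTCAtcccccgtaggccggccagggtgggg
Gclm (chr3:122245397-122245457, plus strand): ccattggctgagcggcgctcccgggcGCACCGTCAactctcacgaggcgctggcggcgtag
Nfe2l2 (chr2:75704869-75704913, minus strand): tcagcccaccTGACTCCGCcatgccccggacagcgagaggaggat
The Txnrd1 match starts 92 bases before the transcription start, in 1 of its 3 windows. In Srxn1 the match to TGAGNNNGC that starts 45 bases before the transcription start shares its bases with a TGACTCA read on the other strand, and the Prdx1 match likewise contains TGACTCA. These matches describe the letters in the windows, and binding was not measured.

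A gene was counted as called when its brightest probe was expressed, had an adjusted p of at most 0.05 by limma and differed from control by at least 1.5-fold. A probe counted as expressed when its Cy5 signal exceeded the negative controls on 80% or more of the arrays in any group, which 9 of the 10 genes met. The exception was Slc7a11, the cystine transporter subunit, whose probe was well above background on 2 of 22 arrays and whose values are therefore near the limit of measurement. Arrays had between 52.1% and 83.5% of probes above background, and the number of arrays limits the precision. Each control lay on a different slide, and 2 of the 7 slides held no control. In lung tissue, fewer cells of a type and less RNA per cell cannot be told apart. The airway, alveolar and endothelial markers used to check the tissue were expressed, with the lowest per-mouse mean log2 ratio over the 6 alveolar type II markers at 5.06.

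Of the 10 genes, 0 were called at 18 µg, where 1.04% of all probes were called. At 54 µg 0 were called, against 0.163% of all probes. At 162 µg 1 was called, Txnrd1, against 3.57% of all probes. By limma, 8490, 4731 and 9939 of the 55681 probes had an unadjusted p under 0.05 at the 3 doses. On their brightest probes, Gclc was among these at every dose, Nqo1 (below control) at 18 and 54 µg, and Txnrd1 and Srxn1 at 54 and 162 µg. The median log2 fold change over the 9 expressed genes was 0.15, 0.29 and 0.40 by rising dose, while over all 16433 expressed named genes it was -0.02, -0.01 and -0.01. Of the 9 genes, 5, 6 and 6 had a fold change above 0 at the 3 doses, against 46.4%, 47.4% and 48.8% of all expressed genes. These medians depended on normalization. With median centring they became -0.22, 0.24 and 0.09, where all expressed genes shifted to -0.26, -0.04 and -0.18.

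**Figure D1:**
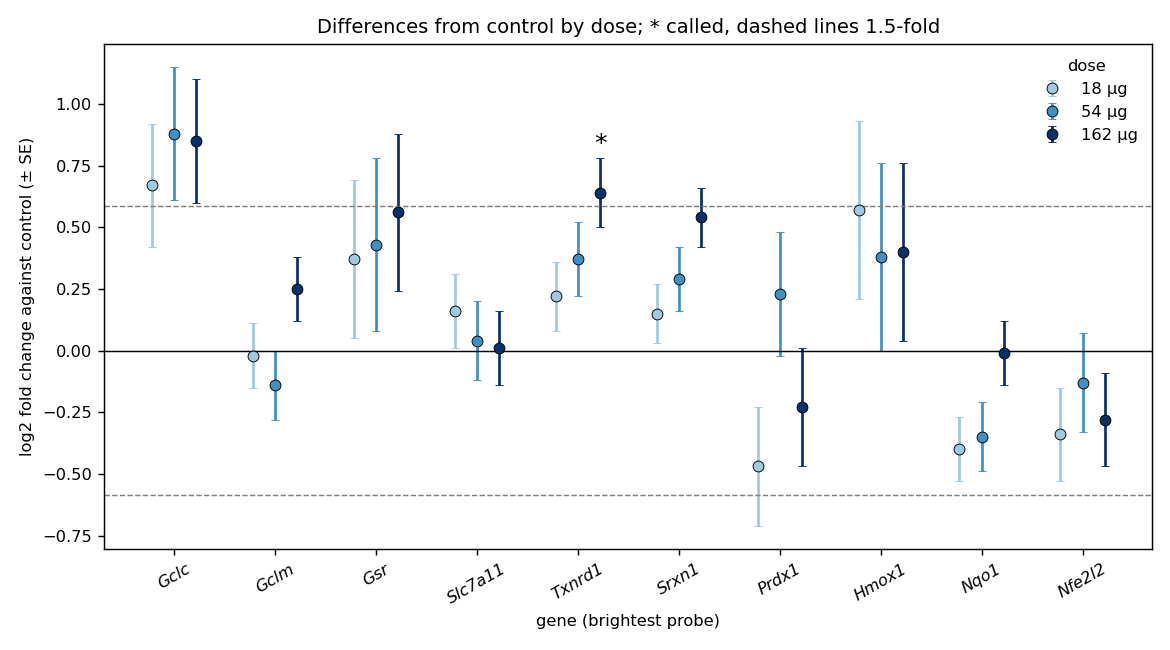
Log2 fold change against control (y axis) of the 10 genes (x axis, brightest probe) at 18, 54 and 162 µg, with bars of 1 standard error and dashed lines at 1.5-fold. Only Txnrd1 at 162 µg, at 0.64, carries the asterisk of a called difference, and Gclc lies above the upper dashed line at all 3 doses without being called.

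Txnrd1 encodes cytosolic thioredoxin reductase, which uses NADPH to keep thioredoxin reduced, and it was higher at 162 µg. Its log2 ratio in the controls was -1.39, -0.90, -0.86, -0.57 and -1.08. At 162 µg it ranged from -0.55 to -0.02 with a median of -0.24, so that all 6 mice lay above every control. At 18 µg the lowest, median and highest mice were at -1.33, -0.72 and -0.35, and the 5 mice at 54 µg were at -1.16, -0.62, -0.49, -0.71 and -0.36. In both of these groups 2 mice lay above all controls and the rest overlapped them. The log2 fold change was 0.22 at 18 µg (SE 0.14, adjusted p = 0.507), 0.37 at 54 µg (SE 0.15, adjusted p = 0.463) and 0.64 at 162 µg (SE 0.14, adjusted p = 0.0106), the last a 1.56-fold difference with a 95% interval of 0.35 to 0.93. Genes with every 162 µg mouse above every control made up 3.72% of the expressed named genes. Within the 4 slides that held both a control and a 162 µg mouse, the difference was between 0.54 and 0.75 and positive each time. With any 1 mouse left out the fold change at 162 µg lay between 0.59 and 0.68 and the adjusted p was at most 0.0414. The call was lost in the deposited log2 table (0.50, adjusted p = 0.0579) and in the Cy5 channel alone (0.59, adjusted p = 0.0727), and under median centring and without normalization, where the value fell to 0.31 and 0.29. In these last settings the median of all expressed genes shifted by -0.18 and -0.21, and relative to it Txnrd1 was at 0.49 and 0.5.

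Srxn1 encodes sulfiredoxin, which reactivates overoxidised peroxiredoxins. Its controls were at -1.25, -1.49, -1.07, -1.36 and -1.28, and the 162 µg mice ranged from -0.90 to -0.32 with a median of -0.73. All 6 mice at 162 µg again lay above every control. The highest, 162 µg replicate 1 at -0.32, had a Cy5 signal of 2044 against 2234.5 in the control on its slide, and its Cy3 signal was 1791 against 7414, so that its high ratio came with a low signal of the reference RNA. Relative to the median of each array, its Cy3 was at -2.04 against the slide's other arrays on the log2 scale, and in the other 5 mice at 162 µg Cy3 was within 0.24 of them. At 18 µg the values ran from -1.22 to -0.87 around a median of -1.15, with 2 of 6 mice above all controls. The mice at 54 µg were at -1.16, -1.02, -0.69, -1.16 and -0.75, with 3 of 5 above all controls. The log2 fold change was 0.15 (SE 0.12, adjusted p = 0.623), 0.29 (SE 0.13, adjusted p = 0.544) and 0.54 (SE 0.12, adjusted p = 0.0132) at the 3 doses. At 162 µg this passed the adjusted p, as did 5.87% of all probes, but at 1.46-fold it missed the threshold of 1.5-fold and was not called. Within slides the difference at 162 µg was positive on all 4, from 0.17 to 1.18, where 1.18 is that of replicate 1. Without this mouse the fold change was 0.41 (SE 0.11, adjusted p = 0.0443). In the Cy5 channel alone it was 0.20 (adjusted p = 1), and under median centring 0.26. Relative to the median of all expressed genes in each setting, these values were 0.15 and 0.44.

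**Figure D2:**
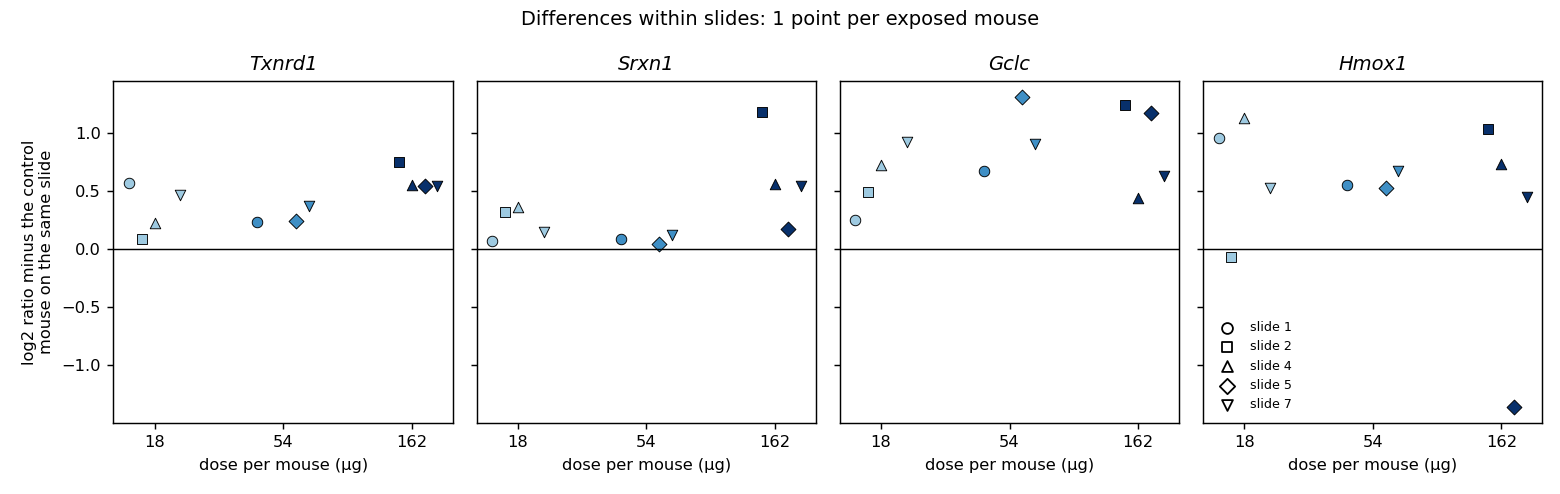
Difference in log2 ratio (y axis) between each exposed mouse and the control mouse on the same slide, by dose in µg (x axis), for Txnrd1, Srxn1, Gclc and Hmox1, with 1 symbol shape per slide. All points of Txnrd1, Srxn1 and Gclc lie above 0, and Hmox1 has 1 mouse at -1.36.

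Prdx1 encodes a peroxiredoxin that reduces peroxides with electrons from thioredoxin, and it was not called at any dose. Its brighter probe had log2 fold changes of -0.47 (SE 0.24), 0.23 (SE 0.25) and -0.23 (SE 0.24), and the dimmer probe 0.00 (SE 0.12), 0.03 (SE 0.13) and -0.17 (SE 0.12). On the brighter probe, 3 of 6 mice given 18 µg lay below all controls, as did 3 of 6 given 162 µg. The probes differed in how far mice spread, from -2.07 to -0.46 on the brighter and from -1.21 to -0.73 on the dimmer at 18 µg.

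Among the genes of glutathione synthesis, Gclc, the catalytic subunit of glutamate-cysteine ligase, had the largest fold changes of the 10 genes at every dose, and none passed the adjusted p. Control mice were at 2.16, 2.32, 2.45, 3.08 and 2.61. The 162 µg mice lay close together, from 3.24 to 3.63 with a median of 3.57, and all 6 were above every control. At 54 µg the values were 2.83, 3.77, 3.11, 3.51 and 3.84, with 4 of 5 above all controls. At 18 µg they spread from 2.41 to 4.35 around a median of 3.17, with 3 of 6 above all controls. The log2 fold change was 0.67 (SE 0.25, adjusted p = 0.193), 0.88 (SE 0.27, adjusted p = 0.261) and 0.85 (SE 0.25, adjusted p = 0.0562). The study, which used another model, listed Gclc as higher at 162 µg on its lung arrays. By RT-qPCR it listed Gclc as higher at 18 and 162 µg, with no significant value at 54 µg. Differences within slides were positive in all 11 pairs of an exposed mouse and a control, which share 5 control mice, as they were for 2.75% of expressed genes measured in all pairs. At 162 µg Gclc passed under 7 of 14 other settings, among them no slide term (1.00, adjusted p = 0.0427), slide as a random block (0.92, adjusted p = 0.0257) and the Cy5 channel alone (0.89, adjusted p = 0.0321). It did not pass in the deposited table (0.75, adjusted p = 0.106), with median centring (0.48, adjusted p = 0.733) or without normalization (0.46, adjusted p = 1). Relative to the median of all expressed genes, Gclc was at 0.66 with median centring and 0.67 without normalization. Gclc also passed when any of 4 single mice was left out, namely 18 µg replicate 4, 18 µg replicate 6, 54 µg replicate 3 or 54 µg replicate 5, with the lowest adjusted p at 0.00978.

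Gclm, the modifier subunit of the same ligase, was not called at any dose. Its controls were at -0.71, -0.50, -0.31, -0.27 and -0.24, and at 162 µg the mice ranged from -0.34 to 0.24 with a median of -0.03. Of these, 5 of 6 lay above all controls. The log2 fold change was -0.02 (SE 0.13, adjusted p = 0.966), -0.14 (SE 0.14, adjusted p = 0.879) and 0.25 (SE 0.13, adjusted p = 0.36). Gsr, glutathione reductase, which regenerates reduced glutathione, had fold changes of 0.37 (SE 0.32), 0.43 (SE 0.35) and 0.56 (SE 0.32) on its brighter probe and of 0.06 (SE 0.25), 0.48 (SE 0.27) and 0.44 (SE 0.25) on the other. In 1 control mouse both Gsr probes were high, at 1.03 and 0.81, while the other controls were at most 0.24 and -0.34, and no group stood apart from the controls. The Gsr probes disagreed in the mouse 18 µg replicate 5, which was at 1.46 on the brighter probe and -0.58 on the dimmer. On the brighter probe its Cy3 signal was 634 against 2931.5 in the control on its slide, and its Cy5 signal was 1379.5 against 2170.5. Without this mouse the Gsr fold change at 18 µg was 0.12, and with any 1 mouse left out it ranged from 0.12 to 0.68 at 18 µg (highest without control replicate 2), from 0.20 to 0.67 at 54 µg (lowest with 54 µg replicate 5 left out, highest with replicate 3 left out) and from 0.40 to 0.86 at 162 µg. Slc7a11, which imports cystine for glutathione synthesis, had fold changes of 0.16, 0.04 and 0.01 near background, and no level is read from them.

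Hmox1 encodes heme oxygenase, which breaks heme down to biliverdin, iron and carbon monoxide, and it was not called. On the brighter probe the controls were at -1.21, -0.81, -1.21, -1.64 and -1.39. The 18 µg mice ranged from -1.20 to 0.17 with a median of -0.69, and the 162 µg mice from -2.57 to 0.23 with a median of -0.75. At 54 µg the values were -0.66, -0.68, -1.74, -0.73 and -0.83. Each group therefore overlapped the controls, and in the 54 and 162 µg groups 1 mouse lay below them all. The log2 fold change was 0.57 (SE 0.36, adjusted p = 0.492), 0.38 (SE 0.38, adjusted p = 0.876) and 0.40 (SE 0.36, adjusted p = 0.655). The dimmer probe gave 0.54 (SE 0.23, adjusted p = 0.272), 0.22 (SE 0.25, adjusted p = 0.897) and 0.71 (SE 0.23, adjusted p = 0.0871). The mouse 162 µg replicate 2 was lowest of its group on both probes, at -2.57 and -1.57. Without it the fold change at 162 µg was 0.84 (SE 0.28, adjusted p = 0.116) on the brighter probe and 0.96 (SE 0.20, adjusted p = 0.0146) on the dimmer. On the brighter probe at 162 µg the lowest value with 1 mouse left out was 0.18, without 162 µg replicate 1. At 54 µg the lowest such value was 0.08 (54 µg replicate 2 left out) and the highest 0.67 (54 µg replicate 3 left out).

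**Figure D3:**
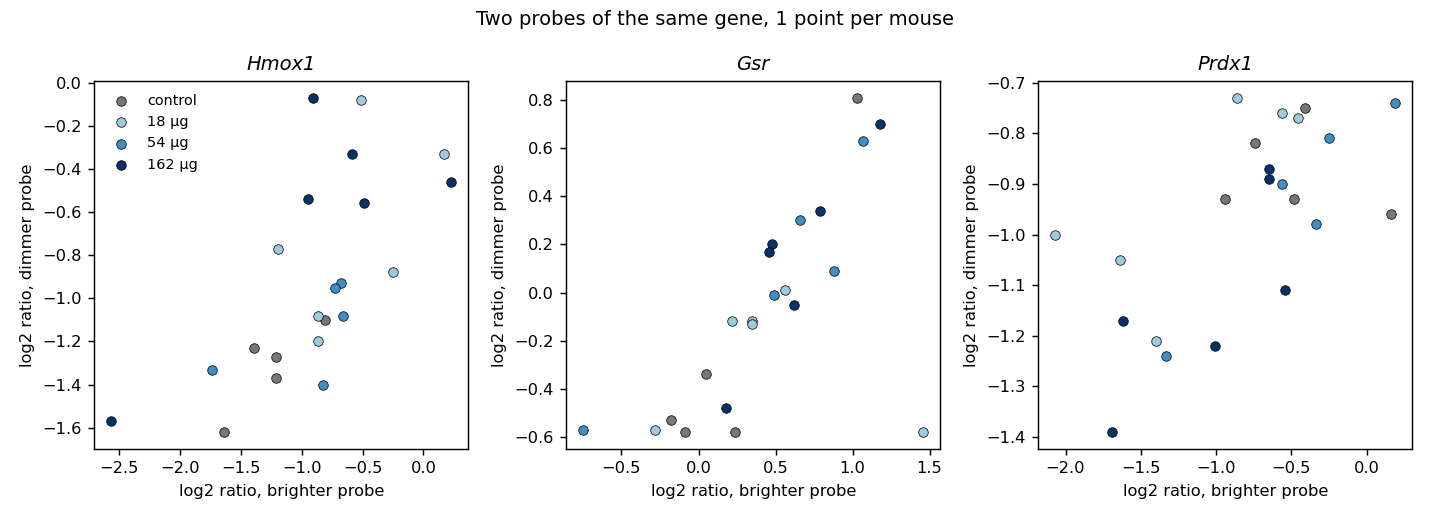
Log2 ratio on the dimmer probe (y axis) against the brighter probe (x axis) of Hmox1, Gsr and Prdx1, with 1 point per mouse shaded by dose. For Hmox1 the mouse at -2.57 and -1.57 lies lower than the others on the brighter probe, and for Gsr 1 control lies high on both probes.

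Nqo1 encodes a quinone reductase, and Nfe2l2 encodes NRF2 itself. Nqo1 had log2 fold changes of -0.40 (SE 0.13, adjusted p = 0.133), -0.35 (SE 0.14, adjusted p = 0.446) and -0.01 (SE 0.13, adjusted p = 0.986), and each group of mice overlapped the controls, which ran from -2.53 to -1.66. The values at 18 and 54 µg were -0.09 and -0.04 without a slide term and -0.05 and -0.06 in the Cy5 channel alone. Nfe2l2 had -0.34 (SE 0.19, adjusted p = 0.422), -0.13 (SE 0.20, adjusted p = 0.939) and -0.28 (SE 0.19, adjusted p = 0.49). Its controls were at 1.17, 0.61, 0.46, 0.66 and 0.95, and 4 of 6 mice given 18 µg lay below all of them, as did 2 of 6 given 162 µg. The transcript of the regulator was thus not called, and its protein was not measured.

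**Figure D4:**
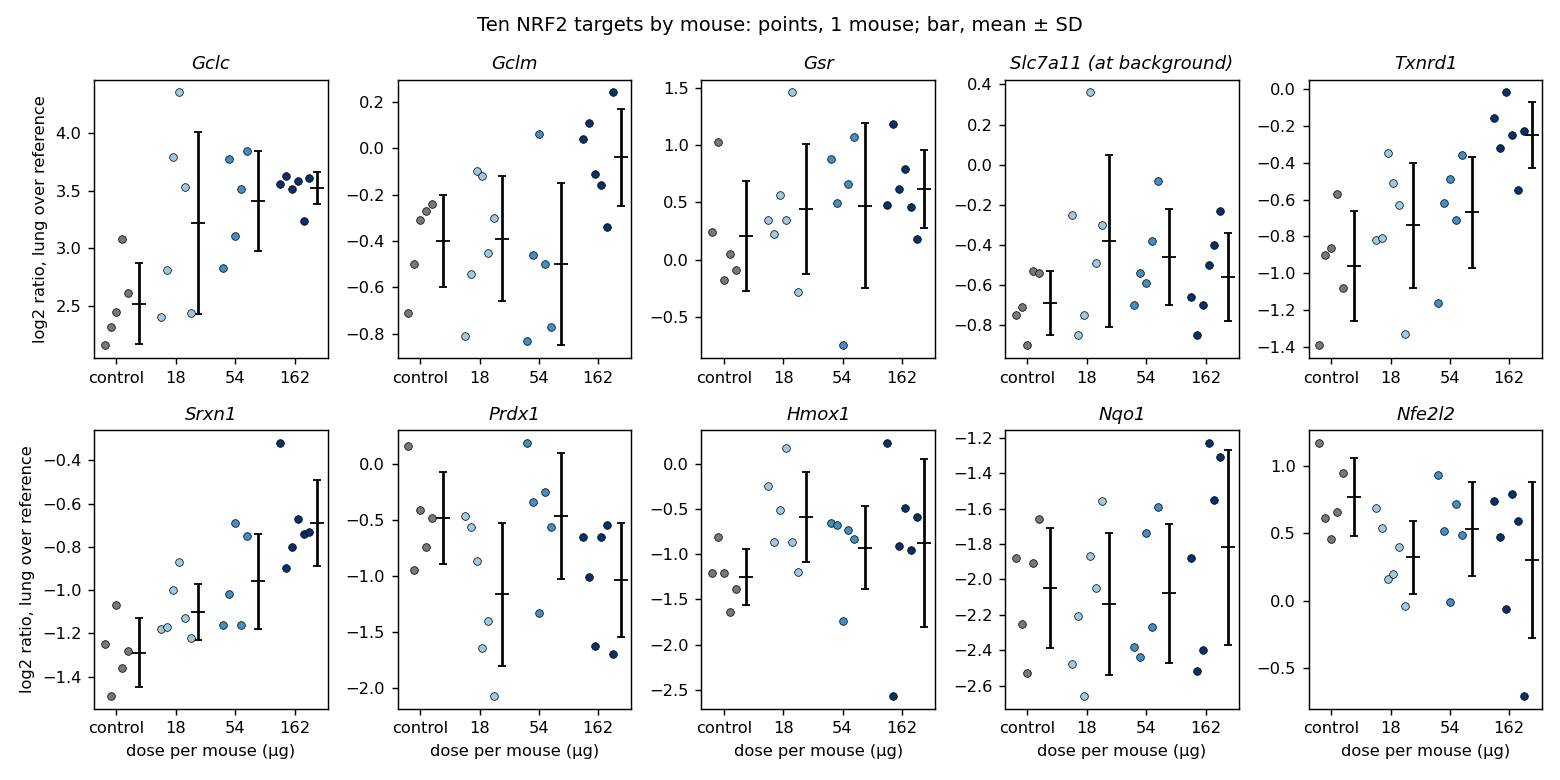
Log2 ratio of lung to reference (y axis, 1 scale per gene) of the 10 genes on their brightest probe by dose in µg (x axis), with 1 point per mouse and a bar for the mean and SD. The 162 µg mice lie above all controls for Gclc, Txnrd1 and Srxn1.

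The doses were also set against each other. Between 54 µg and 18 µg 0 of the 10 genes were called, where 0.0144% of all probes were called. Between 162 µg and 18 µg 0 were called, against 2.44% of all probes. The smallest adjusted p-values there were those of Srxn1 (difference 0.39, SE 0.11, adjusted p = 0.0621), Txnrd1 (0.42, SE 0.13, adjusted p = 0.0777) and Nqo1 (0.39, SE 0.12, adjusted p = 0.0848). Between 162 µg and 54 µg 0 were called, against 0% of all probes. Unadjusted p-values under 0.05 by limma numbered 5490, 8904 and 4292 of all probes in these comparisons. For Txnrd1 the 95% interval of the difference between 162 and 54 µg was -0.02 to 0.57.

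Across the 22 arrays, with the mean of each slide removed, 25 of the 36 pairs among the 9 expressed genes had a Pearson correlation above 0, with a median of 0.12. The highest were Txnrd1 and Srxn1 (r = 0.80), Gclc and Txnrd1 (r = 0.71) and Prdx1 and Nfe2l2 (r = 0.70). The lowest were Gclm with Nfe2l2 (r = -0.50) and Gclm with Prdx1 (r = -0.42). A value for pairs of all expressed genes is not given. The points share arrays and dose groups, so these are descriptions. Of all other named genes, Clip4, Coq7 and Steap2 (each r = 0.90), Mal (r = 0.89) and Akr1b8 (r = 0.87) were most like the mean standardised profile of the 9 genes, where the 95th percentile of all genes was 0.61.

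The rest of the pathway was followed in 67 further genes, of which 66 were expressed. At 18 µg 0 were called higher and 4 lower, at 54 µg 0 were called in either direction, and at 162 µg 4 were called higher and 1 lower. Of all probes, 0.312% were called higher and 0.727% lower at 18 µg, and 0.163% in either direction at 54 µg. At 162 µg 1.73% were called higher and 1.84% lower. The median of the 67 genes follows, over those expressed. Their median log2 fold change was -0.04, 0.01 and 0.06. The 4 that were higher at 162 µg were Akr1b8, an aldo-keto reductase (1.29, SE 0.24, adjusted p = 0.0046), Slc3a2, the heavy chain that partners Slc7a11 (1.10, SE 0.23, adjusted p = 0.00786), Maff, a small MAF protein (0.97, SE 0.18, adjusted p = 0.00409), and Fth1, the ferritin heavy chain that stores iron (0.94, SE 0.13, adjusted p = 0.000665). All 6 mice at 162 µg lay above every control for Akr1b8, Slc3a2 and Fth1, as for 3.72% of expressed named genes, and 5 of 6 for Maff. These 4 are the genes called higher. Bach2, a repressor related to BACH1, was lower at 162 µg (-0.62, SE 0.15, adjusted p = 0.0234). Bach2 was not called under 9 of 15 other settings, among them the Cy5 channel alone (-0.48, adjusted p = 0.172) and the median over its probes (-0.34, adjusted p = 0.151). With median centring, Slc3a2 was the 1 gene of these 5 still called, and without normalization 0 were.

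The 4 genes called lower at 18 µg take part in detoxification. Gsta2, Gstm1 and Mgst1, which conjugate glutathione, had log2 fold changes of -1.79 (SE 0.29, adjusted p = 0.0107), -0.95 (SE 0.18, adjusted p = 0.0226) and -0.85 (SE 0.18, adjusted p = 0.0335). Ephx1, which hydrolyses epoxides, had -0.71 (SE 0.15, adjusted p = 0.027). All 6 mice at 18 µg lay below every control for each of the 4, as for 1.98% of expressed genes, and the 4 are those called lower. None of these 4 was called without control replicate 1, and 1 of the 67 genes, Gsta2, was called in the deposited log2 table at this dose. At 54 and 162 µg their fold changes stayed below 0 without being called, and Gsta2 was at -1.07 and -0.94. At 162 µg Ephx1 (-0.55, SE 0.15, adjusted p = 0.031) passed the adjusted p, as did 5.87% of all probes, but missed the threshold of 1.5-fold. The adjusted p there was 0.055 for Gstm1 (-0.62), 0.0626 for Gsta2 and 0.191 for Mgst1 (-0.45).

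**Figure D5:**
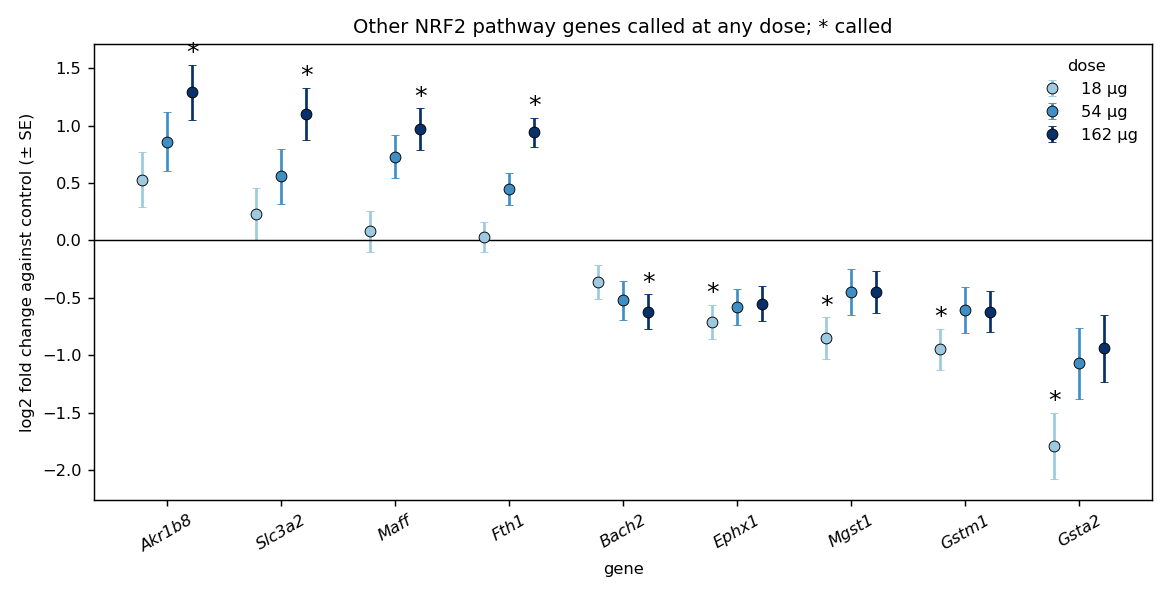
Log2 fold change against control (y axis) of the 9 further pathway genes called at any dose (x axis), with bars of 1 standard error and an asterisk for a called difference. Akr1b8, Slc3a2, Maff and Fth1 carry it above 0 at 162 µg, Bach2 below 0 at 162 µg, and Ephx1, Mgst1, Gstm1 and Gsta2 below 0 at 18 µg.

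The counts by list stand beside the shares of all probes. These were 0.312% called higher and 0.727% lower at 18 µg, and 0.163% in either direction at 54 µg. At 162 µg they were 1.73% higher and 1.84% lower. Regulators of NRF2 had 1 gene called higher and 1 lower of 14 at 162 µg. Glutathione use and transport had 1 called higher of 21 at 162 µg and 3 called lower at 18 µg. Heme and iron genes had 1 called higher of 6 at 162 µg. The other NRF2-linked enzymes had 1 called higher of 9 at 162 µg and 1 called lower at 18 µg. Of 6 genes of NADPH supply and 10 of the thioredoxin system outside the 10 targets, 0 were called at any dose. At 162 µg 6 of these 10 thioredoxin system genes were above control, against 48.8% of all expressed genes. Of the 10, Prdx3 (0.56, SE 0.15, adjusted p = 0.0327) passed the adjusted p but at 1.47-fold missed the fold threshold. Prdx2 was at -0.39 (SE 0.17, adjusted p = 0.225), with all 6 mice at 162 µg below every control.

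Markers of several cell types were read in the same lungs, and most were not called at any dose. Of all probes, 1.04%, 0.163% and 3.57% were called in either direction by rising dose. The 4 club cell markers were all below control at every dose, with medians of -0.80, -0.57 and -0.67, and their mean log2 ratio per mouse ran from 6.35 to 6.90 in controls. By rising dose the same mean ran from 5.17 to 6.93, from 4.76 to 6.73 and from 5.65 to 6.70. The 4 ciliated cell markers were likewise all below control, with medians of -0.99, -0.28 and -0.74, and their mean ran from 3.33 to 3.87 in controls. By rising dose it ran from 1.38 to 3.68, from 2.41 to 3.63 and from 1.25 to 3.52. Of the 8 club and ciliated markers, Aldh1a1 was called lower at 18 µg, and Cyp2f2 and Ccdc39 at 162 µg. Among 8 alveolar macrophage markers, Chil3 was called higher at 18 µg and Marco at 162 µg, with list medians of 0.53, 0.15 and 0.24, and their mean per mouse was 3.43 to 3.81 in controls and 3.65 to 4.11 at 162 µg. By rising dose 6, 4 and 6 of the 8 were above control, and Siglecf, which was not called, was at -0.61, -0.44 and -0.64. Of 9 neutrophil markers 0 were called, with a median of 0.64 at 162 µg and a mean per mouse of 2.00 to 4.67 in controls and 2.16 to 4.80 at 162 µg. In lavage fluid the study counted more neutrophils and more eosinophils than in controls at every dose, with eosinophils most numerous at the lowest. Macrophages and lymphocytes were fewer than in controls at the highest dose. Of 6 markers of recruited monocytes and macrophages, 5 of red cells and 6 of alveolar type II cells, 0 were called, and Pdpn of the 5 alveolar type I markers at 162 µg and Kdr of the 4 endothelial markers at 18 µg were called higher. Whether a change in cell types had a part in the values of the NRF2 targets was not tested.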

How the data were processed

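Lung RNA from 22 mice was hybridised to 22 two-colour arrays on 7 slides. The study's description plans 6 mice per group, and 22 arrays were analysed. The authors deposited intensity values per spot, the median Cy5 and Cy3 signals of the scanner output, neither background subtracted nor normalized, from Feature Extraction 10.7.3.1 by their headers. A deposited table of log2 ratios, normalized by the authors and holding 1 value per probe, served as an alternative. No array had its dyes swapped.

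Control spots had weight 0 and spots marked as outliers were left out. Log ratios were normalized within arrays by loess (span 0.3) without background subtraction, and replicate spots were summarised by their median. With limma 3.58.1 in R 4.3.3, dose and slide were fixed effects over all arrays, with 12 residual degrees of freedom and Benjamini-Hochberg adjustment over 55681 probes. The study used another program (MAANOVA). Expression required Cy5 above the 5% trimmed mean plus 3 trimmed standard deviations of 308 negative control spots. Slide was taken from the array's barcode and coincides with scan time. The model was tested on simulated data with known changes.

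Accessions named 26413 probes. A gene is represented by its probe of highest mean intensity. The genes reported by name are the 10 targets, further pathway genes called at any dose and the 5 genes most like the targets in profile. Cell type markers that were called are named too, as are Prdx2, Prdx3 and Siglecf, which were not called, all chosen after their values were seen. The targets, lists and alternatives were chosen with earlier results of these data known. Alternatives were normexp background correction (offset 50), median centring, no normalization, quantile normalization, the Cy5 channel alone, the deposited table, other slide terms, a replicate block, other filters and thresholds, and leaving out each mouse.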

Additional observations from a re-analysis of the deposited data

Results flagged for a closer look

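Of 52 groups of mice tested by probe, 4 held a mouse whose gap to its nearest neighbour exceeded Dixon's 95% critical value for the range of its group, and chance alone flags about 1 group in 20. On the brighter Hmox1 probe the mouse 54 µg replicate 3 was at -1.74, with the next at -0.83. On the dimmer Hmox1 probe the mouse 162 µg replicate 2 was at -1.57, with the next at -0.56. For Gclc the mouse 162 µg replicate 5 was at 3.24, with the next at 3.51. On the dimmer Gsr probe the mouse control replicate 2 was at 0.81, with the next at -0.34.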

How the results depend on the processing

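The number of the 10 targets called at 162 µg was 1, and it became 0 with median centring, without normalization and in the deposited table. In the Cy5 channel alone Txnrd1 was not called (0.59, adjusted p = 0.0727) and Gclc was (0.89, adjusted p = 0.0321). The number became 2 with slide as a random block, with only the 2 groups compared, with adjustment over expressed probes and without a fold threshold, and 3 without a slide term and without the 5 arrays of under 62% detection. That last setting was chosen after seeing the data, and it left out 18 µg replicates 5 and 6, 54 µg replicate 3 and 162 µg replicates 4 and 6. At 54 µg the number rose from 0 to 2 with only the 2 groups compared and to 1 without those arrays. Leaving out 1 mouse gave 1 to 2 called targets at 162 µg, the second being Gclc or Srxn1, and 0 at 18 and 54 µg and between doses. With 2 targets called, the mouse left out was control replicate 3, 18 µg replicate 4, 18 µg replicate 6, 54 µg replicate 3, 54 µg replicate 5 or 162 µg replicate 2. Replicate numbers were not taken to pair the mice, since deviations of mice that share a number did not all correlate above 0.1. That rule is too strict to show that pairing is absent, so pairing by number is not excluded. For mice that share a number the median r was 0.17 and the lowest -0.17 (median 0.11 on different slides). The median was -0.08 for mice sharing neither number nor slide. Among the arrays of other groups, 12 of 22 arrays correlated best with an array of their own number. With the replicate block in place of slide, 3 targets were called at 162 µg (Gclc, Txnrd1 and Srxn1), 2 further pathway genes at 54 µg and 9 at 162 µg. The targets' median fold change at 18 µg became -0.22 with median centring and -0.38 without normalization. At 54 µg it became 0.41 without normalization and 0.11 with only the 2 groups. At 162 µg it became 0.09 with median centring, 0.07 without normalization, 0.23 in the Cy5 channel alone, and 0.25 both with only the 2 groups and without the arrays of low detection. With 1 mouse left out it ranged by rising dose from 0.04 to 0.21, from 0.20 to 0.38 and from 0.18 to 0.48, at 162 µg lowest without 162 µg replicate 1. Further pathway genes, 4 called at 18 µg, became 2 with median centring, 0 without normalization, 1 in the deposited table, 1 with only the 2 groups and 2 without the arrays of low detection, and from 0 (without control replicate 1) to 6 with 1 mouse left out. Calls at 18 µg also fell to 1 without control replicate 5 or 18 µg replicate 5, and to 2 without control replicate 3 or 18 µg replicate 1, 3 or 4. At 54 µg 0 became 5 with only the 2 groups, 3 without the arrays of low detection and 0 to 1 with 1 mouse left out. At 162 µg 5 became 1 with median centring, 0 without normalization, 8 without a slide term, 10 with a random block, 9 with only the 2 groups, 9 with adjustment over expressed probes and 8 without the arrays of low detection, and 4 to 8 with 1 mouse left out, with 8 reached without control replicate 2, 54 µg replicate 1 or 54 µg replicate 5. Bach2 was not called in 7 of those 22 fits, Ephx1 in 7, Mgst1 in 9, Gstm1 in 3 and Gsta2 in 1. Of 1080 values of single targets under the alternatives, 48 changed sign, none of them a called value. With median centring Txnrd1 and Srxn1 at 18 µg were -0.19 and -0.25 and Slc7a11 at 54 µg -0.13. Without normalization Hmox1, Txnrd1, Srxn1 and Gsr at 18 µg were -0.01, -0.36, -0.42 and -0.15, and Gclm was 0.05 at 54 µg and -0.01 at 162 µg. The median of all expressed genes shifted by -0.42, 0.13 and -0.21 there, and relative to it Txnrd1 and Srxn1 at 18 µg were at 0.06 and 0. In the Cy5 channel Nfe2l2 at 54 µg was 0.10, and at 162 µg Nqo1, Slc7a11 and Prdx1 were 0.23, -0.05 and 0.01. Nqo1 at 162 µg was 0.02 with normexp, 0.07 with quantile normalization, 0.23 without a slide term, 0.11 with a random block, 0.12 with the replicate block and 0 with only the 2 groups. Gclm at 18 µg was 0 with quantile normalization, 0.08 in the deposited table and 0.02 without a slide term. With 1 mouse left out, values that crossed 0 ranged from -0.12 to 0.10 for Nqo1 at 162 µg, -0.08 to 0.04 for Gclm at 18 µg, -0.05 to 0.13 for Slc7a11 at 54 µg, -0.04 to 0.08 for Slc7a11 at 162 µg and -0.26 to 0 for Nfe2l2 at 54 µg. The cause of these changes was not tested. Signal over background limits Slc7a11 and the arrays with the fewest probes above background.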
